A study of Mus musculus with 5 samples.

Results

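The 10 genes described here encode contractile and cytoskeletal proteins, and an integrin chain (Itga8), by which mature vascular smooth muscle is usually recognised: Acta2, Tagln, Myh11, Cnn1, Myl9, Mylk, Tpm1, Tpm2, Cald1 and Itga8. They were taken by name from the 26189 gene columns of the deposited single-cell tables of the mouse aortic arch, and all 10 were found there. The cells came from female mice, 12-week-old per the labels and, per the design text, when atherosclerosis was induced, of the genotypes C57BL/6J (wild-type) and C57BL/6N-Saa3tm1.1(KOMP)Vlcg/MbpMmucd (Saa3-/-), which the design text calls littermates. Mice of both genotypes had received 1 intraperitoneal injection of an adeno-associated viral vector to bring on atherosclerosis, and ate a Western diet for 18 weeks. Digested aortic arches were sorted for live CD45+ cells, and the genotypes were told apart by a sample tag each in 1 BD Rhapsody capture. The number of mice in each pool is not given in the sources used here, and there is 1 pool per genotype. The series also holds 4 samples of cultured bone marrow-derived macrophages, which were not analysed here.

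Smooth muscle cells of the artery wall contract when calcium and calmodulin switch on myosin light chain kinase, which phosphorylates the regulatory light chain and lets smooth muscle myosin pull on actin filaments. Tropomyosin, caldesmon, calponin and transgelin sit on those filaments and shape their stability and their access to myosin. Serum response factor, with its partner myocardin, binds CArG boxes in the promoters of many of these genes, and their levels are known to drop when smooth muscle cells of an atherosclerotic artery take on other states.

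Counts are molecules, that is, unique molecular identifiers, and levels are written as CPM, a gene's molecules out of 1000000 from the cells concerned. A gene's CPM is compared between cell classes and between pools, not with that of another gene, because the values are not scaled to gene length. Cells with at most 25% of molecules from mt- genes were kept, 833 of 889 under the tag labelled wild-type and 823 of 854 under the tag labelled Saa3-/-. These held 7289593 and 5231922 molecules, a median of 6415 and 4698 per cell, and the tables shared 0 cell barcodes. The summed molecules of Saa3 went against the label, with 1079 (148 CPM) in the pool labelled wild-type and 1268 (242 CPM) in the pool labelled Saa3-/-. The cells with any Saa3 molecule went the other way, 170 of 833 and 114 of 823. The pools are therefore named by their labels throughout. Whether the counted reads lie in the deleted part of the gene was not tested. Cells were clustered without the 10 genes and named from 15 other smooth muscle markers and from markers of the other cell types. Names ending in -like mean that rule. With 1 pool per genotype no test was possible, and all intervals are exact 95% intervals (Poisson for levels, binomial for shares) that cover counting error only.

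The promoters of the group are introduced here because the same 10 genes were high together in the cells described below. RefSeq promoter windows (GRCm38.p6) were at hand for 8 of the 10 genes, with 9 windows in all since Cald1 has more than 1 start, and Tagln and Myh11 were not among them. The 250 bases before each start were searched on both strands for the CArG box, a motif of 10 bases in which 6 A or T bases stand between CC and GG and which reads alike on both strands. An exact box was in 1 of the 9 windows, that of Myl9, against 1.47% of all 32851 windows. With 1 G or C allowed among the inner 6 bases, boxes were in 2 of the 9 windows, Myl9 and Acta2, against 8.59% of all windows. The 4 stretches below show each box in capitals with 10 bases on either side, and the positions are counted back from the start site. The annotation places the pair at Acta2 inside the first exon of 1 longer transcript, in its 5′ UTR, and both boxes of Myl9 upstream of its first exon. A match describes letters in a window and not a bound site.

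Myl9 box at -161 (chr2:156775293-156775322, plus strand, exact): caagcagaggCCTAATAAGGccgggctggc
Myl9 box at -99 (chr2:156775355-156775384, plus strand, 1 other base): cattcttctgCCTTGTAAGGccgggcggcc
Acta2 box at -84 (chr19:34255438-34255467, minus strand, 1 other base): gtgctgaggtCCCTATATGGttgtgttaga
Acta2 box at -34 (chr19:34255388-34255417, minus strand, 1 other base): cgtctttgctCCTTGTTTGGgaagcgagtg

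Most molecules of the 10 genes lay in 1 class of cells. The 169 smooth-muscle-like cells held 79.0% (78.7 to 79.3) of all molecules of the group while holding 10.5% of all molecules. In these cells the 10 genes made up 4.48% of molecules (4.44 to 4.53) in the pool labelled wild-type and 4.09% (4.03 to 4.14) in the pool labelled Saa3-/-. In the T-cell-like and B-cell-like cells, called lymphocyte-like as a pair and used as the background because lymphocytes are not known to make smooth muscle myosin or calponin, the same share was 0.0896% (0.0842 to 0.0952) and 0.0976% (0.0921 to 0.103). The smooth-muscle-like class was defined without the 10 genes, by 15 other markers such as Lmod1, Synpo2, Kcnmb1 and Nexn. Of those 15, 12 were each found in at least 25% of its cells. It counted 104 cells, 12.5% (10.3 to 14.9), of the pool labelled wild-type and 65 cells, 7.90% (6.15 to 9.96), of the pool labelled Saa3-/-. Because the suspension was sorted on CD45, which marks blood-derived cells, these shares are those of cells that passed the gate and not of the wall. Ptprc, the gene of CD45, stood at 119 CPM (101 to 139) in them against 1376 CPM in lymphocyte-like and 841 CPM in macrophage-like cells.

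Cell by cell, the separation was almost complete. Under the wild-type label the share of molecules from the 10 genes ran from 0.681% through a median of 4.65% to 8.79% over smooth-muscle-like cells. Under the Saa3-/- label it ran from 1.25% through 4.02% to 8.14%. The highest lymphocyte-like cell of either pool reached 0.591%, below every smooth-muscle-like cell. At a limit of 1%, 102 of 104 and 65 of 65 smooth-muscle-like cells were above it, and the 2 below it had 23.7% and 22.4% of molecules from mt- genes, close to the filter. Outside the class 11 cells reached 1%, of which 8 were in the cells high in Col2a1 and Acan described further on, 2 were fibroblast-like and 1 was macrophage-like.

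**Figure D1:**
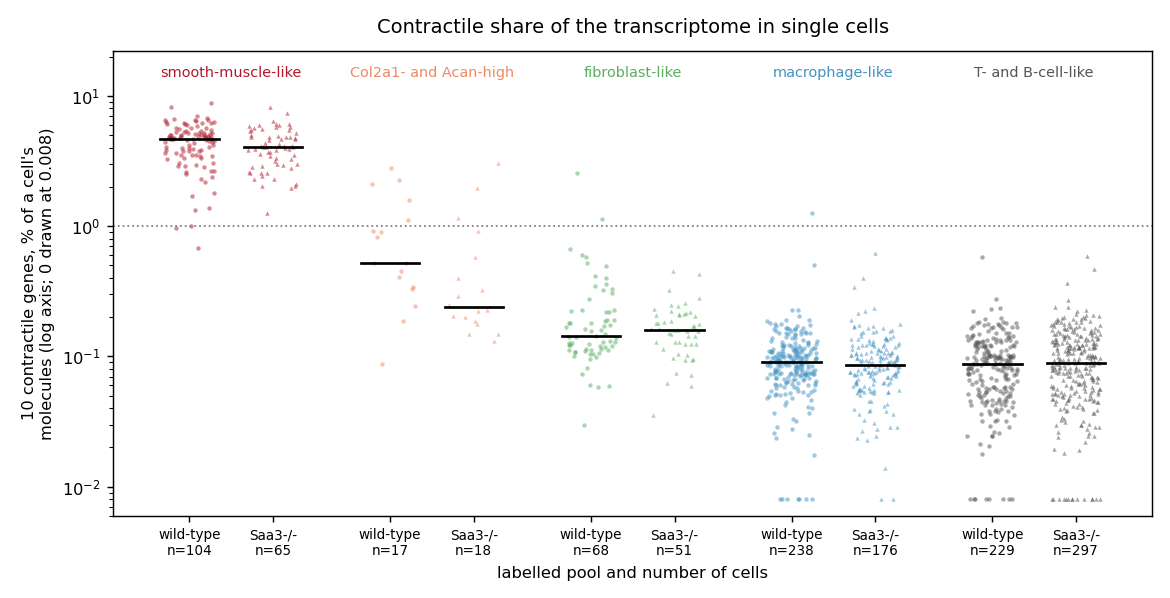
Share of each cell's molecules that come from the 10 contractile genes (vertical axis, %, logarithmic), for single cells of 5 classes and both labelled pools. Each point is a cell, the black bar is the median, cells at 0 are drawn at the foot, and the dotted line is 1%. Smooth-muscle-like cells have medians of 4.65% and 4.02%, and lymphocyte-like cells of 0.0869% and 0.0886%.

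Among the thin-filament genes, Acta2 (chr19:34241090-34255590, minus strand), the smooth muscle alpha-actin, stood at 14598 CPM in smooth-muscle-like cells labelled wild-type and 12915 CPM in those labelled Saa3-/-, against 415 and 415 CPM in lymphocyte-like cells. Tagln (chr9:45929619-45936058, minus strand), the actin-binding transgelin or SM22, stood at 7434 and 6996 CPM against 54.5 and 87.7 CPM. That is 137-fold and 79.8-fold above the lymphocyte level, where Acta2 was 35.2-fold and 31.1-fold above it. Cnn1 (chr9:22099216-22109630, plus strand), the calponin that damps actomyosin ATPase activity, was at 943 and 724 CPM against 19.3 and 25.3 CPM. Cald1 (chr6:34598500-34775473, plus strand), caldesmon, was at 3553 and 3532 CPM against 34.3 and 39.6 CPM, and the pools were within counting error of each other. The tropomyosins, coiled coils that lie along the filament, were Tpm1 (chr9:67022590-67049406, minus strand) at 2607 and 2295 CPM and Tpm2 (chr4:43514711-43523765, minus strand) at 2384 and 2215 CPM. Tpm1 was the member closest to its lymphocyte level, 33.4-fold and 22.3-fold above it.

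The motor genes and the integrin were also highest in smooth-muscle-like cells. Myh11 (chr16:14194535-14291372, minus strand), the smooth muscle myosin heavy chain, stood at 4372 and 3836 CPM against 61.5 and 85.1 CPM in lymphocyte-like cells. Myl9 (chr2:156775420-156781658, plus strand), the regulatory light chain, stood at 3551 and 3570 CPM against 87.8 and 80.9 CPM. Mylk (chr16:34745210-35002420, plus strand), the kinase that phosphorylates that light chain, was at 2397 and 2326 CPM against 48.3 and 37.9 CPM. Itga8 (chr2:12106632-12301922, minus strand), the integrin alpha 8 chain that ties the cell to matrix, was at 2970 and 2467 CPM against 40.4 and 37.9 CPM. All 10 genes were thus at least 2-fold above lymphocyte-like cells in both pools, where 14.3% of 5636 genes with at least 50 molecules were.

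**Figure D2:**
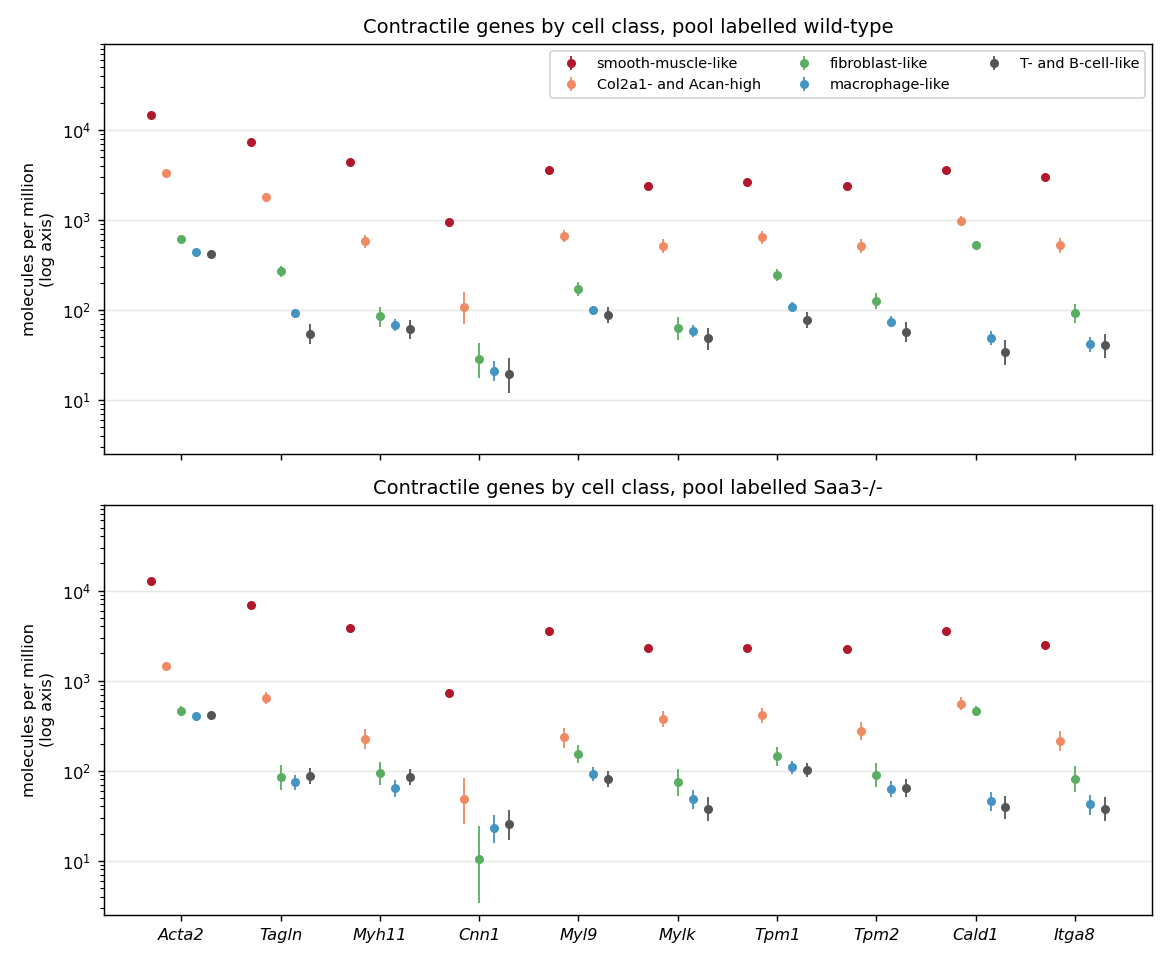
Level of each contractile gene (CPM, logarithmic axis) in 5 cell classes, with the pool labelled wild-type above and the pool labelled Saa3-/- below. Points are summed levels and bars are exact 95% Poisson intervals, many smaller than the point. Smooth-muscle-like cells lie highest for every gene, and fibroblast-like cells stand off from macrophage-like and lymphocyte-like cells mainly at Cald1.

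Annotated neighbours touch 4 of the 10 genes. Itga8 overlaps the antisense gene E030013I19Rik over 977 bases, and that gene led the list of genes marking the smooth-muscle-like cluster. It also overlaps Gm37701 on its own strand over 1100 bases. Tagln overlaps Pcsk7 on the other strand over 108 bases and the antisense gene Gm48529 over 3627 bases, and Mylk and Cald1 each overlap antisense genes. Whether the counting used strand and how it treated reads shared by genes are not given in the sources used here, so reads in those overlaps cannot be assigned. Stretches of 50 bases shared with transcripts of another gene were rare, at most 0.340% of a member's stretches, in Myh11.

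Nearly every smooth-muscle-like cell carried each gene. Of the 169 cells, between 94.7% (Cnn1) and 100% (Acta2, Tpm1 and Cald1) had at least 1 molecule of a given member. The same shares in the 526 lymphocyte-like cells ran from 9.89% (Cnn1) to 77.4% (Acta2). The classes differ in depth, with a median of 8134 and 6657 molecules per smooth-muscle-like cell in the pools labelled wild-type and Saa3-/- against 4152 and 3746. With each cell thinned to 2000 molecules, which leaves out 5 smooth-muscle-like and 17 lymphocyte-like cells, the shares ran from 78.7% to 100% and from 4.72% to 55.8%. Acta2 molecules were thus found in most lymphocyte-like cells, at a level far below that of smooth muscle.

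In macrophage-like cells the 10 genes were near the lymphocyte level, and in both classes the percentage of the smooth muscle level differed between members. Macrophage-like cells held Acta2 at 441 and 408 CPM in the pools labelled wild-type and Saa3-/-, next to 415 and 415 CPM in lymphocyte-like cells. No member was 2-fold above the lymphocyte level in macrophage-like cells of either pool, where 15.2% and 15.9% of genes were. Smaller immune classes had members past 2-fold on few molecules. The share of all genes past 2-fold in those classes was not computed, so these members are not read as a trait of the classes. In the 15 neutrophil-like cells labelled Saa3-/- these were Myl9 (11 molecules, 234 CPM, 117 to 420, against 80.9 CPM, 65.5 to 98.8), Tpm2 (9 molecules) and Cnn1 (5 molecules), while mast-cell-like, NK-cell-like and type 2 innate lymphoid-like cells had at most 4 molecules of any such member in a pool. In lymphocyte-like cells of the pool labelled wild-type, Acta2 stood at 2.84% of its smooth muscle level (2.59 to 3.11), Tpm1 at 3.00% (2.41 to 3.69), Tagln at 0.732% (0.562 to 0.939) and Cald1 at 0.964% (0.685 to 1.32). At the percentage of Acta2, 240 Tagln molecules would lie there, and 62 (47.5 to 79.5) were counted. Under the Saa3-/- label the like figures for Tagln were 267 and 104 (85.0 to 126). The order held in macrophage-like cells of both pools together, with Acta2 at 3.07%, Tpm1 at 4.37%, Tagln at 1.18% and Cald1 at 1.35% of the smooth muscle level. In lymphocyte-like cells of both pools together, Tpm2 (2.61%), Cnn1 (2.59%) and Myl9 (2.37%) were closer to Acta2 (2.96%). Mylk (1.81%), Myh11 (1.76%) and Itga8 (1.40%) were lower. The smooth muscle level is that of the cells that passed the CD45 gate, and the source of the molecules in these 2 classes was not tested.

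Fibroblast-like cells, 68 and 51 in the pools labelled wild-type and Saa3-/-, held 0.223% (0.212 to 0.234) and 0.166% (0.155 to 0.178) of their molecules in the 10 genes. Cald1, which non-muscle cells also make in a shorter form, was the member that set them apart from lymphocyte-like and macrophage-like cells. It stood at 532 CPM (481 to 588) and 460 CPM (402 to 526), 15.5-fold and 11.6-fold above the lymphocyte level. This was not particular to fibroblast-like cells. In the 6 and 4 endothelial-like cells of the same pools Cald1 stood at 483 CPM (241 to 865) and 316 CPM (190 to 493). That was 14.1-fold and 7.97-fold above the lymphocyte level, on 11 and 19 molecules. In single fibroblast-like cells the median Cald1 level was 323 CPM, while that of Tagln, Myh11, Cnn1, Mylk and Itga8 was 0. At least 2-fold above the lymphocyte level were 5 of 10 members in the pool labelled wild-type and 2 of 10 in the pool labelled Saa3-/-, against 18.0% and 16.9% of all genes. Cald1 and Itga8 were above in both pools, and Tagln, Tpm1 and Tpm2 in the pool labelled wild-type. Itga8 levels were low, 91.7 and 81.6 CPM.

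Tagln and Tpm2 in fibroblast-like cells rested in part on a pair of cells. In the pool labelled wild-type, 2 fibroblast-like cells had 1.14% and 2.54% of their molecules in the group. With them, Tagln stood at 270 CPM (234 to 310), 4.95-fold above the lymphocyte level, and without them at 169 CPM (141 to 202), 3.11-fold. In the pool labelled Saa3-/-, which had no such cell, Tagln was at 85.8 CPM (61.6 to 116), 0.979 times the lymphocyte level. Tpm2 went from 2.22-fold to 1.85-fold without those cells and Itga8 from 2.27-fold to 1.96-fold, which left 3 members past 2-fold, whereas Cald1 went from 15.5-fold to 15.4-fold and Tpm1 from 3.16-fold to 2.96-fold. Acta2 and Myh11 were near the lymphocyte level in both pools, at 1.48-fold and 1.12-fold for Acta2 and at 84.9 and 94.2 CPM against 61.5 and 85.1 CPM for Myh11.

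**Figure D3:**
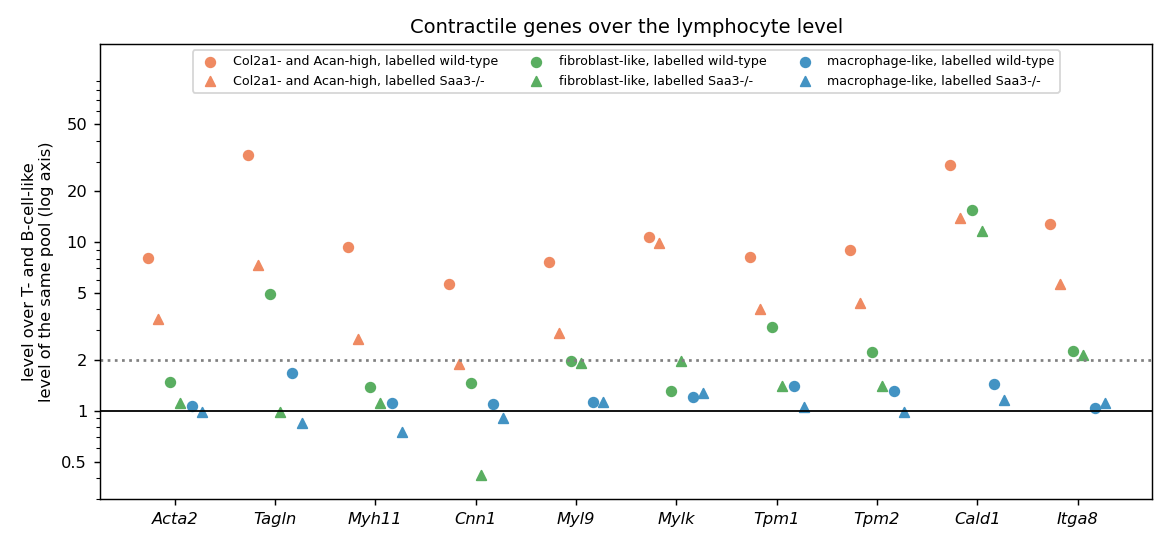
Level of each contractile gene in 3 cell classes divided by its level in lymphocyte-like cells of the same pool (vertical axis, logarithmic). Circles are the pool labelled wild-type, triangles the pool labelled Saa3-/-, the solid line is an equal level and the dotted line 2-fold. Macrophage-like cells stay under 2-fold for all 10 genes, fibroblast-like cells reach 15.5-fold and 11.6-fold at Cald1, and the cells high in Col2a1 and Acan lie above 2-fold except for Cnn1 in the pool labelled Saa3-/-.

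A small cluster of 35 cells, led by Col10a1, Ibsp, Col2a1, Chad and Acan, genes of cartilage and bone matrix, stood between smooth-muscle-like and fibroblast-like cells in the contractile genes. The marker rule gave it the name of pericytes, but its leading genes go against that name, so it is called by those genes. It held 0.968% (0.928 to 1.01) of its molecules in the 10 genes in the 17 cells labelled wild-type and 0.442% (0.418 to 0.468) in the 18 cells labelled Saa3-/-. Of the 10 genes, all 10 and 9 were at least 2-fold above the lymphocyte level, against 11.9% and 12.3% of all genes. For every member it was the class next below smooth muscle when both pools were summed, and for 8 of 10 its interval lay apart from that of the class after it. The exceptions were Cnn1, followed by neutrophil-like cells at 72.1 CPM, and Tpm1, followed by the 10 endothelial-like cells at 313 CPM. In the pool labelled Saa3-/- alone the ranking did not hold for Cnn1 and Myl9. Cnn1 was at 48.2 CPM in the cluster against 107 CPM in neutrophil-like and 49.8 CPM in endothelial-like cells, on 13, 5 and 3 molecules. Myl9 was at 233.7 CPM against 234.5 CPM in neutrophil-like cells. How often other genes rank and separate in this way was not computed. Smooth muscle levels lay 4.73-fold (Cald1) to 11.4-fold (Cnn1) above those of this cluster.

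Within that cluster the pool labelled Saa3-/- had the lower level of each member. Acta2 stood at 3342 against 1443 CPM, Tagln at 1801 against 638 CPM, Myh11 at 577 against 226 CPM, Myl9 at 668 against 234 CPM and Itga8 at 521 against 215 CPM. These 5 of the 9 members with at least 50 molecules were at least 2-fold lower, where 7.36% of 1576 genes were. Mylk, at 517 against 375 CPM, Tpm1, Tpm2 and Cald1 differed by less than 2-fold. Few cells held much of the difference. Under the wild-type label 5 cells above 1% held 68.2% of the group's molecules, and under the Saa3-/- label 3 such cells held 36.4%. The median cell had 0.521% and 0.238%, and without the cells above 1%, a limit applied after their values were seen, the shares were 0.439% (0.408 to 0.473) and 0.302% (0.281 to 0.324). Other markers differed as well. The 7 macrophage markers summed to 2123 and 723 CPM, the 8 fibroblast markers to 20510 and 33640 CPM, and the 15 smooth muscle markers outside the group to 1593 and 1232 CPM, and their part in the difference was not tested.

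Between the pools, smooth-muscle-like cells showed no member past 2-fold. Of the 4289 genes with at least 50 molecules in these cells, 1.91% were past it in either direction. Cnn1 had the widest ratio, 943 CPM (879 to 1011) against 724 CPM (650 to 805), a log2 ratio of -0.38 for Saa3-/- over wild-type. Itga8 followed at -0.27, then Myh11 at -0.19, Tpm1 at -0.18, Acta2 at -0.18, Tpm2 at -0.11 and Tagln at -0.09. Mylk, Cald1 and Myl9 stood at -0.04, -0.01 and 0.01. Counting intervals overlapped for Myl9, Mylk, Tpm2 and Cald1 and lay apart for the other 6. The like share over all genes was not computed, so this count is not read as a trait of the members.

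The 10 genes leaned one way by small amounts. Their median log2 ratio was -0.14, and 9 of 10 were below 0, where the median over all 4289 genes was 0.01 and 48.2% were below 0. Among the 178 genes with at least 1000 molecules, a depth closer to that of the members, the median was -0.003, 50.6% were below 0 and the middle 50% of ratios ran from -0.11 to 0.09. Weighting each cell equally or thinning each to 2000 molecules kept Cnn1, Itga8, Myh11, Tpm1, Acta2, Tpm2 and Tagln below 0. Over the 9 alternatives that gave ratios, the sign of Myl9 changed in 5, that of Cald1 in 4 and that of Mylk in 1. Cells and not animals lie behind these values, so what differs between mice cannot be read from them. The macrophage markers summed to 1080 CPM in smooth-muscle-like cells labelled wild-type and 561 CPM in those labelled Saa3-/-, and the fibroblast markers to 5045 and 5488 CPM. Of the 7 macrophage markers, 3 were at least 2-fold lower (C1qa, Csf1r and Mrc1), where 1.19% of all 4289 genes were. The part of those molecules, and of the difference in depth, in the contractile ratios was not tested.

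**Figure D4:**
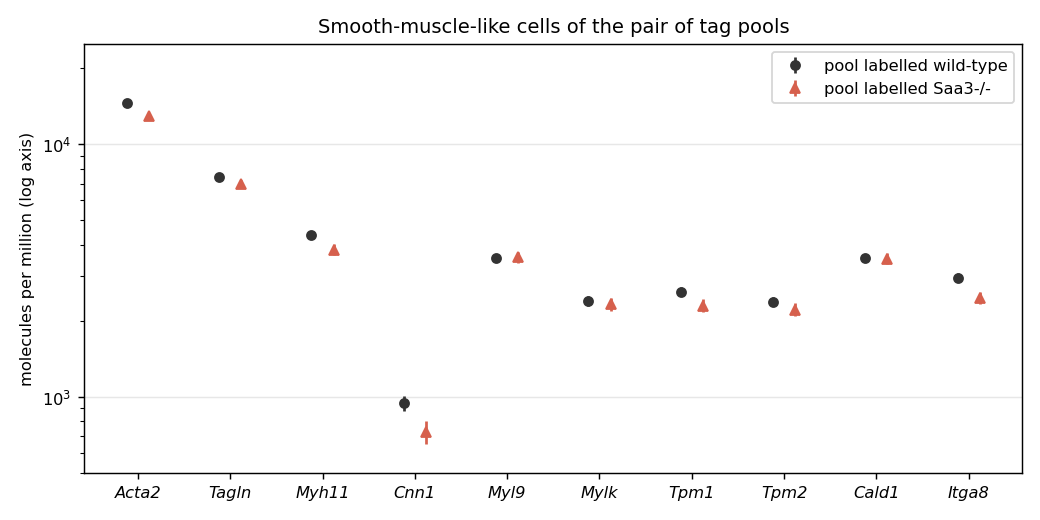
Level of each contractile gene in smooth-muscle-like cells (CPM, logarithmic axis) of the pool labelled wild-type (circles, 104 cells) and the pool labelled Saa3-/- (triangles, 65 cells). Bars are exact 95% Poisson intervals, smaller than the point for most genes. The circles lie slightly higher except at Myl9, and no pair is 2-fold apart.

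Levels of the members were also compared across single smooth-muscle-like cells. Over 164 cells thinned to 2000 molecules, the 45 pairs of members had correlations of log2 counts from 0.05 to 0.62 with a median of 0.31, all above 0. Acta2 with Myl9 had the highest value, 0.62, followed by Myh11 with Myl9 at 0.545 and Acta2 with Myh11 at 0.544. Tpm2 with Itga8 had the lowest. Pairs of other genes were not computed. The cells share a capture and a depth, and the level of the group went with the percentage of mt- molecules at r = -0.24 and with the log2 of the cell's total at r = 0.11.

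At a finer clustering, again without the 10 genes, most of these cells fell into clusters of 102 and 58 cells. The larger had 64 cells labelled wild-type and 38 labelled Saa3-/-, the smaller 35 and 23. Myh11 differed most between them, 4790 CPM (4654 to 4929) against 2555 CPM (2375 to 2746), 1.87-fold. Itga8 was 1.62-fold and Mylk 1.41-fold higher in the larger cluster, while the other 7 members were 1.10-fold (Tpm2) to 1.27-fold (Myl9) higher. The smaller cluster had fewer molecules per cell, a median of 4584 against 9062, and more mt- molecules, 11.1% against 8.29%, and the part of these in the difference was not tested. The clusters were made from the same cells, so these are descriptions.

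Genes of contractile partners and regulators were looked up in the same cells. Of 24, 17 of the 21 with enough molecules were at least 2-fold above lymphocyte-like cells in both pools, where 14.3% of all genes were. Myl6, the essential light chain, stood at 5343 and 5166 CPM against 813 and 725 CPM, and Flna, the actin crosslinker filamin A, at 3457 and 3306 CPM against 419 and 385 CPM. Actn1, alpha-actinin, was at 1904 and 1870 CPM, and Itgb1, the beta chain that pairs with integrin alpha 8, at 1917 and 1545 CPM. Mkl1, a coactivator of serum response factor, was the 1 member of the list at least 2-fold below, at 15.4 and 16.8 CPM against 64.1 and 70.0 CPM, and was picked out after its values were seen. The share of all genes at least 2-fold below lymphocyte-like cells was not computed, here or for the lists that follow. Between the pools 1 of 22 was past 2-fold, where 0.723% of genes were past it upwards. It was Cacna1c, the pore of the L-type calcium channel, with 23 molecules (27.3 CPM) labelled wild-type and 27 (56.5 CPM) labelled Saa3-/-.

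Relatives of the 10 genes that non-muscle cells use were looked up in the same cells. Actb was at 5183 and 4818 CPM in smooth-muscle-like and 5114 and 3897 CPM in lymphocyte-like cells, and Actg1 at 1784 and 2019 against 2566 and 1856 CPM. Tagln2, the non-muscle transgelin, was at 789 and 756 against 477 and 385 CPM. Of 12 with enough molecules, 2 were at least 2-fold higher in smooth-muscle-like cells, Myh10 (663 and 643 against 23.7 and 16.9 CPM) and Cnn3, where 14.3% of all genes were. Another 2 were at least 2-fold lower, Myh9 (127 and 140 against 465 and 421 CPM) and Tpm3, and Cnn3, Myh9 and Tpm3 are named after their values were seen. Myh10 and Myh9 are the non-muscle myosin heavy chains, and Tpm3 is a tropomyosin of non-muscle and slow skeletal fibres. Between the pools 0 of 11 were past 2-fold, against 1.91% of all genes.

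Of the genes reported in smooth muscle cells that have left the contractile state, 3 of the 9 with enough molecules were at least 2-fold above the lymphocyte level in both pools, where 14.3% of all genes were. Mgp, a matrix inhibitor of calcification made by healthy vessel wall too, stood at 7744 and 8801 CPM, and Fn1, fibronectin, at 689.5 and 477 CPM. Vcam1, an adhesion molecule named after its values were seen, stood at 110 and 90.0 CPM, and Ly6a was the 1 gene at least 2-fold below. Klf4, a transcription factor tied to loss of contractile genes, was at 230 and 170 CPM against 343 and 336 CPM in lymphocyte-like cells, and Lgals3 at 216 and 163 against 184 and 160 CPM. Between the pools 0 of 8 were past 2-fold, against 1.91% of all genes.

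Genes that respond to tissue digestion were measured beside the group. In smooth-muscle-like cells 5 of 12 were at least 2-fold above the lymphocyte level in both pools, namely Fos (2318 and 2544 against 406 and 324 CPM), Egr1 (973 and 842 against 217 and 257 CPM), Dusp1, Atf3 and Hspa1a, where 14.3% of all genes were. Junb was the 1 gene at least 2-fold below. Jund was at 949 and 1110 against 1295 and 1473 CPM and Dusp1 at 725 and 779 against 258 and 149 CPM. Between the pools 0 of 12 were past 2-fold, against 1.91% of all genes, with a median log2 ratio of 0.12.

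Markers of other cell types were looked up in smooth-muscle-like cells. Fibroblast markers were present, with Col1a2 at 1539 and 1811 CPM and Col3a1 at 1269 and 1296 CPM. At least 2-fold above the lymphocyte level in both pools were 5 of the 7 with enough molecules, where 14.3% of all genes were. The 8 markers summed to 5045 and 5488 CPM against 40608 and 42561 CPM in fibroblast-like cells. Dcn, named after its values were seen, was at 371 and 515 CPM against 13278 CPM in fibroblast-like cells labelled wild-type. Of the pericyte markers, 3 of the 3 with enough molecules (Abcc9, Cspg4 and Rgs5) were at least 2-fold above the lymphocyte level in both pools, where 14.3% of all genes were, and the 4 found summed to 755 and 902 CPM against 44.8 and 40.5 CPM. Pericyte was the next-best name for the smooth-muscle-like cluster. Of the endothelial markers Kdr and Cldn5 were at 0, and Tm4sf1 was at 1403 and 1570 CPM. Of the 5 markers of heart and skeletal muscle, Myh6 and Ckm were at 0 as well. That list, led by Tnnt2, Actc1 and Acta1, summed to 55.8 and 87.9 CPM against 5.27 and 4.21 CPM in lymphocyte-like cells. Among 12 immune genes none was 2-fold above the lymphocyte level in both pools, where 14.3% of all genes were. At least 2-fold below it were 7, among them Cd74 at 1540 and 955 against 4001 and 5812 CPM. The share of all genes that far below it was not computed. Lyz2 (958 and 463 CPM) and C1qa (120 and 52.3 CPM) were the 2 of 11 at least 2-fold lower in the pool labelled Saa3-/-, where 1.19% of genes were.

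The genes whose levels followed the group most closely were sought over 16 combinations of class and pool with at least 20 cells. The 8 highest correlations of log2(CPM + 1) with the mean of the 10 members, from 0.950 to 0.964, belonged to Mustn1, Synpo2, Sost, Csrp2, Tns1, Enah, Itih4 and Myom1. Mustn1 and Synpo2 were among the markers that named the class. Tns1, tensin, which links integrins to actin, stood at 2551 CPM in smooth-muscle-like and 68.0 CPM in lymphocyte-like cells of both pools together, Csrp2, a LIM-domain protein, at 1534 and 58.9 CPM, and Sost, the secreted Wnt inhibitor sclerostin, at 794 and 9.46 CPM. The members themselves had correlations with that mean from 0.930 (Cald1) to 0.994 (Myl9). Each member is part of that mean, so these values are not set against those of the other genes. The points share 1 capture and mostly differ by whether they are smooth muscle, so the values describe a pattern over classes.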

How the data were processed

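Live CD45+ cells of the aortic arch were measured by single-cell RNA sequencing. Per the file headers, the authors' BD Rhapsody WTA Analysis Pipeline (version 1.11.1, GRCm38, GENCODE mouse release 19, intronic reads included, refined cell calling on) made the deposited counts of molecules per cell, with no subsampling. The submitters' processing notes name mm10, R 4.3.1 and Seurat 4.3.0. The tags are tied to genotypes by the names of the deposited tables alone. Of 2401 tag calls, 11 were multiplets and 647 undetermined, and those cells are not in the count tables.

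Cells of both pools were clustered with scanpy 1.11.5 and leidenalg 0.10.2 under Python 3.11.15 (2000 variable genes without the 10 members and Saa3, 30 principal components, 15 neighbours, resolution 1). A cluster took the class with the highest mean marker z-score if at least 3 markers were in at least 25% of its cells. It stayed unnamed where another class had more markers among its top 10 genes. The cluster led by Col2a1 and Acan was set apart after its genes were seen. Molecules were summed per class and pool. Log2 ratios used a pseudocount of 0.5 molecule and needed at least 50 molecules. The ratio function was tested on simulated data. Positions come from GENCODE mouse release 21 on GRCm38. Doublets within a tag were not removed; Scrublet called 6 and 4 cells and served as an alternative. Other alternatives were the cell filter, the resolution, the members among the clustering genes, equal weights, thinning and other limits. The members, lists and markers were chosen with earlier results of these data known. Named were all 10 members, the 4 highest genes of each list in smooth-muscle-like cells, every list gene past 2-fold between the pools there, and the 8 genes of most similar pattern; other genes were named after their values were seen. The transgene of the injected vector is not reported here.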

Additional observations from a re-analysis of the deposited data

How the results depend on the processing

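No member passed 2-fold between the pools in smooth-muscle-like cells under any of the 9 alternatives run for it, and 51 of 63 recomputed main values stayed within the counting interval of the reported one (that count of members, at 0, among them). Some of these could not move. A limit of 1% on lymphocyte-like cells removed no cell, and a pseudocount of 1 could hardly shift ratios at the members' molecule counts. The share of molecules from the 10 genes in smooth-muscle-like cells moved outside that interval in the pool labelled wild-type under a stricter cell filter (4.53%), a resolution of 2 (4.56%), members among the clustering genes (4.43%) and removal of Scrublet doublets (4.55%). In the pool labelled Saa3-/- it moved at a resolution of 2 (4.17%) and with members among the clustering genes (4.15%). At a resolution of 0.5 the cells high in Col2a1 and Acan joined the class, which gave 3.73% and 2.77% and raised its share of the pool labelled Saa3-/- to 10.1%. In fibroblast-like cells labelled wild-type the share was 0.208% both at a resolution of 2 and with members among the clustering genes. It was 0.190% without the 2 cells above 1%, an alternative added after seeing the data. Counts of 1 capture without a replicate pool limit every comparison, and Cnn1, with 52 molecules in all T-cell-like and B-cell-like cells, has the least certain background. No paired analysis was possible because each genotype has 1 pool.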
